A study of Homo sapiens with 3 samples.

Results

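The genes that encode both immunoprecipitated proteins, SBNO1 and TAF4, and their paralogues, SBNO2 and TAF4B, were examined for peaks of the SBNO1, TAF4 and control immunoglobulin (IgG) libraries. The members were the 4 named genes, of 20046 protein-coding genes in GENCODE 44, and the rule that lists them uses no measured value. Peaks were taken in 3 zones: within 1 kb of the transcription start site (TSS) of any annotated transcript, measured from the nearest edge of the peak, elsewhere in the gene body, and within 50 kb on either side of the gene. These windows covered 820 kb together and held 11 of 16147 SBNO1 peaks, 7 of 12763 TAF4 peaks and 0 of 1598 IgG peaks.

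The libraries came from ChIP-seq (chromatin immunoprecipitation with sequencing of the recovered DNA) of HuCCT1 cells, an established cell line from cancer of the bile ducts, in a study of the interplay of SBNO1 with TAF4. The labels give no treatment, and the 3 libraries differed only in the antibody. For each antibody the precipitates of several biological replicates were pooled before sequencing, so there was 1 library per antibody, no replicate error could be given, and no difference was tested. Each list holds the position and a score of every peak, a whole number of at most 1000, and no read numbers, so the depth is unknown. Whether the study drew its own counts from these lists is not stated, and a peak here means an entry of the deposited list.

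SBNO1 (Strawberry Notch 1) and SBNO2 are the human homologues of the Drosophila gene strawberry notch, which acts beside the Notch pathway, and belong to a family of helicase-like nuclear proteins. SBNO2 is known as a gene induced by interleukin signals through STAT3 in macrophages and astrocytes. TAF4 and TAF4B are alternative subunits of TFIID, the general transcription factor that recognises core promoters and helps to place RNA polymerase II there; TAF4B is best known for its roles in the germ line. From the reference transcripts, the SBNO1 and SBNO2 proteins had 1393 and 1366 amino acids and were 56% identical over 1193 aligned positions. The TAF4 and TAF4B proteins had 1085 and 862 amino acids and were 50.1% identical over 716 aligned positions.

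The 4 canonical promoters are shown first, because the result for each gene turns on them. Each line gives the 250 bases upstream of the start in RefSeq (GRCh38.p14), 5' to 3' on the strand of the gene, so that the last base is next to the first transcribed base. Capitals mark exact matches, on either strand, to motif letters of transcription factors. These are KLF/SP (GGGCGG), NFY (CCAAT), ETS (CCGGAA), the E-box (CACGTG), CRE (TGACGTCA) and the NRF1 core (TGCGCA). AP-1 (TGACTCA), the TATA box (TATAAA), STAT (TTCCNGGAA), RBPJ (TGGGAA) and YY1 (ATGGCGG) were searched as well and had no match in these stretches. A match is a run of letters and not a bound site.
SBNO1, chr12:123364848-123365097, minus strand: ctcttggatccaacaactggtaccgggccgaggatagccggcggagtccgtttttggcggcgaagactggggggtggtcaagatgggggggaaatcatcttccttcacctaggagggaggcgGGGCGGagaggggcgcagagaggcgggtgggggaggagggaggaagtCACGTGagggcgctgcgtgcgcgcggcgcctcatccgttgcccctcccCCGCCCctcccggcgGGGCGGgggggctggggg
SBNO2, chr19:1174269-1174518, minus strand: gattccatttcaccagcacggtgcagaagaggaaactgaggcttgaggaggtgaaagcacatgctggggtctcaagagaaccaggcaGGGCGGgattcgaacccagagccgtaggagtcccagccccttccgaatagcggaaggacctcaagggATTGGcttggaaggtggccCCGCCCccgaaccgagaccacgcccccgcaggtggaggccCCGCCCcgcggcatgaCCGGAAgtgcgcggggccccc
TAF4, chr20:62065882-62066131, minus strand: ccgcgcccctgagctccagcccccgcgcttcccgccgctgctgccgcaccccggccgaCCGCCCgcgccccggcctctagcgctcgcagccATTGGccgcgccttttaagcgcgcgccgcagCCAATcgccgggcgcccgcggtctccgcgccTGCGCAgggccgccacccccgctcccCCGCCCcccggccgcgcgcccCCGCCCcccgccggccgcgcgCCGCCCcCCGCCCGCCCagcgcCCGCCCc
TAF4B, chr18:26226195-26226444, plus strand: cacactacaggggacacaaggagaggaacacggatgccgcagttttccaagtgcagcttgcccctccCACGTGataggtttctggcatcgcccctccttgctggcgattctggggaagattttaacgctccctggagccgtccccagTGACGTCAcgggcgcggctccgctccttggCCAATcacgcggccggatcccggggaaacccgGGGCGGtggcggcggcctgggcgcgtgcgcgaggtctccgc

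All 250 of these bases of SBNO1 lay inside both an SBNO1 and a TAF4 peak, 109 of the 250 bases of SBNO2 lay inside an SBNO1 peak, and none of those of TAF4 or TAF4B lay inside a peak. In SBNO1 the E-box stood at -81 to -76 relative to the start and 3 KLF/SP matches stood between -128 and -13. SBNO2 had 3 KLF/SP matches, an NFY match at -96 to -92 and an ETS match at -21 to -16. The TAF4 stretch was 86% G or C and held 7 KLF/SP matches, of which a pair overlapped, with 2 NFY matches and the NRF1 core. TAF4B had an E-box, a CRE at -103 to -96, an NFY match at -73 to -69 and a KLF/SP match at -41 to -36. Of 22199 RefSeq promoters of protein-coding genes, 53.7% held the KLF/SP letters in the same 250 bases, 32.7% NFY, 18% ETS, 8.32% the NRF1 core, 7.37% the E-box and 2.01% CRE. In these stretches KLF/SP was in all 4, the E-box in SBNO1 and TAF4B, and ETS in SBNO2. In the central 200 bp of the SBNO1-list promoter peaks, which reach past the stretches, KLF/SP and ETS were found at both SBNO1 and SBNO2. Over the whole SBNO1 list, promoter and other peaks together, 21.8% of the central 200 bp held KLF/SP and 10.6% ETS.

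Both SBNO genes and neither TAF4 gene had an SBNO1 peak within 1 kb of a TSS. SBNO1 was the only one of the 4 with a TAF4 peak there, and no IgG peak lay near any of them. Over all protein-coding genes, 27.1% had an SBNO1 peak within 1 kb of a TSS, 32.7% a TAF4 peak and 1.54% an IgG peak. Peaks of both libraries, as at SBNO1, were found at 23.4% of genes. An SBNO1 peak with no TAF4 peak, as at SBNO2, was found at 3.62%, and no peak of any list, as at TAF4 and TAF4B, at 63.6%. With 4 genes, 2 with an SBNO1 peak and 1 with a TAF4 peak are counts near these shares.

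**Figure D1:**
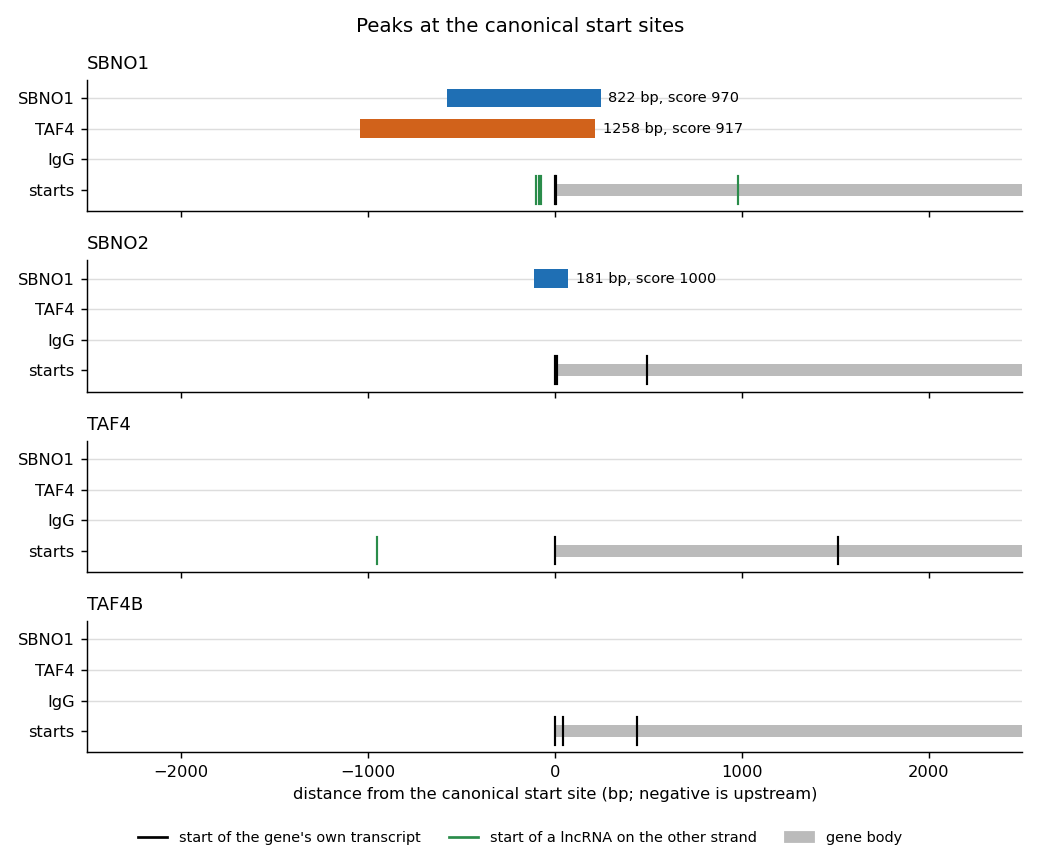
Peaks within 2500 bp of the canonical TSS of each gene, by library, with the distance from the TSS on the x axis (bp, negative is upstream) and the width and the deposited score printed beside each bar. Black ticks are TSS of the gene's own transcripts, green ticks are TSS of lncRNAs on the other strand, and the grey bar is the gene body. SBNO1 had a peak of 822 bp (SBNO1 library) and one of 1258 bp (TAF4 library), SBNO2 had a peak of 181 bp (SBNO1 library), and TAF4 and TAF4B had none.

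SBNO1 (ENSG00000139697.14, chr12:123289109-123364847, minus strand, 75.7 kb) carried broad peaks of both proteins over its main start. The SBNO1 peak, chr12:123364603-123365424, was 822 bp wide and scored 970. The TAF4 peak, chr12:123364631-123365888, was 1258 bp wide and scored 917. They were wider than 95% and 98.7% of the peaks of their lists. Both covered 2 of the 3 annotated TSS, 123364847 and 123364843, and shared 794 bp, which is 96.6% of the SBNO1 peak and 63.1% of the TAF4 peak. On the side of the gene body their edges were 28 bp apart, whereas on the upstream side the TAF4 peak reached 464 bp farther. Hence the peak centres lay 166 bp (SBNO1) and 412 bp (TAF4) upstream of the TSS.

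The upstream side of this promoter is annotated as well. SBNO1-AS1, a long non-coding RNA transcribed from the opposite strand, has 3 annotated starts 75, 87 and 101 bp upstream of the SBNO1 start, all under both peaks, and the centres of both peaks lay in its exons. A further annotated start of SBNO1-AS1, 979 bp downstream of the SBNO1 start, lay outside both peaks. The promoter is thus divergent in the annotation, and a peak over it cannot be assigned to 1 of the 2 transcripts. The microRNA gene MIR8072 is annotated at the very start of SBNO1, 4 bp downstream of the canonical TSS. The remaining SBNO1 start, 14.4 kb inside the gene in sequence of 43.7% GC, had its nearest peak, the one at the main start, 14.2 kb away.

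Around the gene there was 1 further place with peaks. The SBNO1 peak chr12:123383595-123384187 (593 bp, score 656) and the TAF4 peak chr12:123383630-123384202 (573 bp, score 792) lay 18.7 and 18.8 kb upstream and shared 558 bp over a TSS of KMT5A, the neighbouring gene for the histone H4 lysine 20 monomethyltransferase. This pair coincided almost along its whole length, with edges 15 and 35 bp apart. Away from the starts, the body of SBNO1 held no peak, and neither did the bodies of the other 3 genes.

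By the pattern of promoter scores over the 3 libraries, the genes most like SBNO1 were SDHB (965 in the SBNO1 list and 911 in the TAF4 list), GLRX (977 and 923) and CDC14A (977 and 923), with summed score differences of 11, 13 and 13. Their peaks were narrower, from 249 to 459 bp in the SBNO1 list and from 359 to 438 bp in the TAF4 list. Multiplied by its width in kb, the score of the SBNO1 peak at the SBNO1 gene gave 797, above 97.4% of the SBNO1 list, and that of its TAF4 peak gave 1154, above 98.7% of the TAF4 list. These ranks follow mainly from width, and the score of 1000 held down the product of 34.6% of SBNO1 and 43% of TAF4 peaks. By score alone, 64.1% of the SBNO1 and 40.8% of the TAF4 promoter peaks were lower. The TAF4 score of 917 was below its list's median of 935.

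SBNO2 (ENSG00000064932.16, chr19:1107637-1174268, minus strand, 66.6 kb) had a single promoter peak, in the SBNO1 list only. The peak chr19:1174197-1174377 was 181 bp wide with a score of 1000, covered 2 TSS (1174268 and 1174256) and lay 423 bp from a further one (1173774). Its 181 bp ran from 109 bp upstream of the canonical TSS into the gene, over the NFY and ETS letters and the 2 KLF/SP matches nearest to the start. Of the SBNO1 list, 2.84% of all peaks and 1.71% of the promoter peaks were narrower. The nearest TAF4 peak was 3361 bp upstream of the canonical TSS. Of the 725 genes with an SBNO1 and no TAF4 peak near a TSS, 7.72% had a TAF4 peak nearer than that, and their median distance was 39 kb. Its pattern of scores, 1000 in the SBNO1 list and no peak in the others, was shared by 176 other genes, of which GLOD4 and MRM3 (181 bp) and CCDC50 (180 bp) were nearest in the width of the peak.

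The score of the SBNO2 peak has to be read with its width. Below the cap of 1000, the score times the width in kb was at least 200, rounded to a whole number, for every peak of the 3 lists, and the narrowest such peaks were 202, 205 and 203 bp wide. All 817 SBNO1, 693 TAF4 and 237 IgG peaks of up to 200 bp had a score of 1000. Hence no peak as narrow as that at SBNO2 had a lower score, and its product of 181 is set by the cap. Peaks as narrow as this made up 2.92% of the SBNO1 list, 3.4% of the TAF4 list and 12.9% of the IgG list. Among the promoter peaks of each list the shares were alike, at 1.79%, 1.67% and 1.57% (4 of 255 IgG peaks). When only peaks wider than 200 bp were kept, a choice made after the values were seen, SBNO1 was the only member left with an SBNO1 peak near a TSS, while the share of all genes went from 27.1% to 26.2%. Whether TAF4 signal under the caller's limit was present at SBNO2 cannot be read from a peak list.

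**Figure D2:**
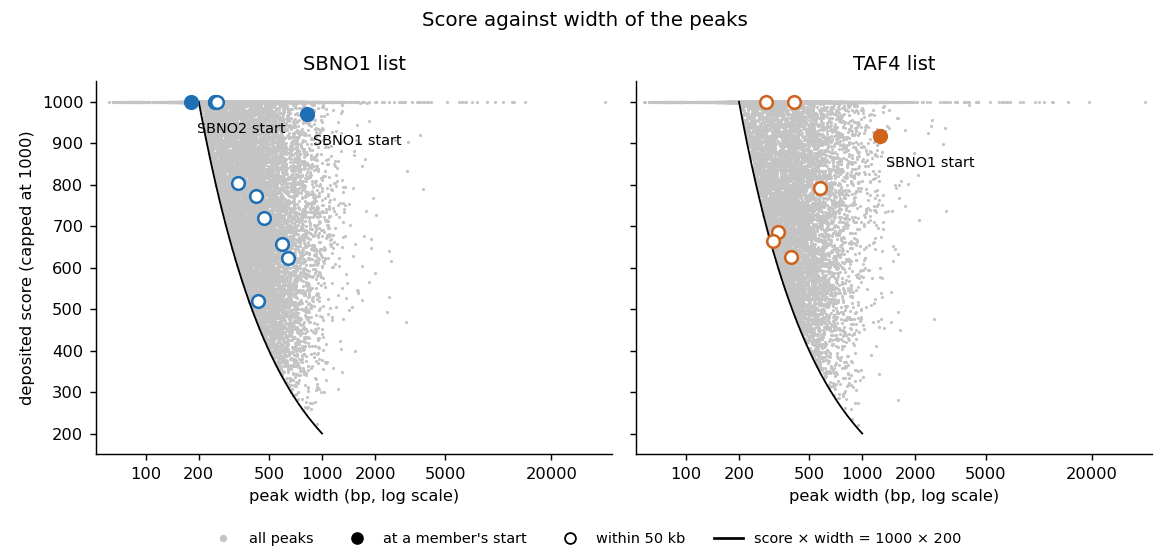
Score of each peak (y axis, capped at 1000) against its width (x axis, bp, log scale) in the SBNO1 and TAF4 lists, with all peaks in grey, peaks at the start of 1 of the 4 genes filled and other peaks within 50 kb open. The line marks a product of score and width in kb of 200, below which no peak under the cap was found; the SBNO2 peak of 181 bp lies left of its upper end, where all peaks have a score of 1000.

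The annotation places a further protein-coding start of SBNO2 42 kb inside the gene (1132221). The canonical transcript encodes 1366 amino acids and the one from the inner start a short form of 1309. The 250 bases upstream of the inner start are shown because they are as rich in G and C (67.6%) and in KLF/SP letters (4 matches) as the canonical promoter, with the same capitals as above.
SBNO2 inner start, chr19:1132222-1132471, minus strand: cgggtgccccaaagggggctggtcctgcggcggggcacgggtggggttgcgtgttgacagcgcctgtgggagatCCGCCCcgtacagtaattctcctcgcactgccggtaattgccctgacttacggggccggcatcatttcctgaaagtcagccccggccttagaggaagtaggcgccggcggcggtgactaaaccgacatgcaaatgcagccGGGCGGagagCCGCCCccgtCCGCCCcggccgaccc
The nearest SBNO1 peak was 29.3 kb and the nearest TAF4 peak 28.1 kb from this start. None of the 6 SBNO2 starts other than the 3 at the canonical promoter had a peak of any list within 1 kb, and they were between 5.05 and 29.3 kb from the nearest SBNO1 peak.

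The sequence around SBNO2 was rich in peaks, most of them in or near its neighbours. Besides the promoter peak, 2 SBNO1 and 3 TAF4 peaks lay within 1 kb of a start of another protein-coding gene. Another 5 SBNO1 and 2 TAF4 peaks lay over 1 kb from any. Its window held 8 SBNO1 peaks, more than the windows of 97.4% of genes, and 5 TAF4 peaks, more than those of 92.5%, where the median gene had 1 of each. These ranks are not adjusted for the length of the window, which grows with the gene. On the 3' side, an SBNO1 peak (chr19:1095346-1095765, 420 bp, score 772) covered a TSS of POLR2E, a subunit of the RNA polymerases, and a TAF4 peak (chr19:1103713-1104121, 409 bp, score 1000) covered a TSS of GPX4, which reduces lipid peroxides. An SBNO1 peak of score 719 and a TAF4 peak of score 686 overlapped between them, 1035 and 1116 bp from the nearest GPX4 start. On the 5' side, 5 SBNO1 and 3 TAF4 peaks lay in STK11, the gene of the kinase LKB1, which is transcribed away from SBNO2. Here the SBNO1 and TAF4 peaks at 3.49 and 3.36 kb from the SBNO2 start (scores 1000 and 626) were 201 and 71 bp from an annotated STK11 start, the pair at 6.24 and 6.22 kb (scores 804 and 665) lay in the gene, and the STK11 start at 31.3 kb had a TAF4 peak of score 1000 (chr19:1205545-1205829, 285 bp) and no SBNO1 peak. The other 3 SBNO1 peaks, at 7.37, 9.61 and 41.7 kb (scores 520, 1000 and 624), overlapped no TAF4 peak. The centres of these peaks lay in introns of STK11, apart from the one at 41.7 kb, whose centre was in an untranslated part of an exon. A peak that is near SBNO2 in distance is thus mostly nearer to the start of another gene.

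In the 4 windows, overlaps with the other library were seen for 5 of the 11 peaks in the SBNO1 list and for 5 of the 7 in the TAF4 list, against 59.7% and 75.2% over the whole lists. Counted from any protein-coding TSS, 5 of the 11 SBNO1 and 5 of the 7 TAF4 peaks lay within 1 kb of one, and 6 and 2 lay farther away. The density was 1.34 SBNO1 and 0.854 TAF4 peaks per 100 kb in the windows, and 0.55 and 0.434 over the genome. In single windows it ran from 4.8 SBNO1 and 3 TAF4 peaks per 100 kb at SBNO2 to none at TAF4B. Chromosome 19 as a whole, which holds SBNO2, had 0.825 SBNO1 and 0.914 TAF4 peaks per 100 kb.

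**Figure D3:**
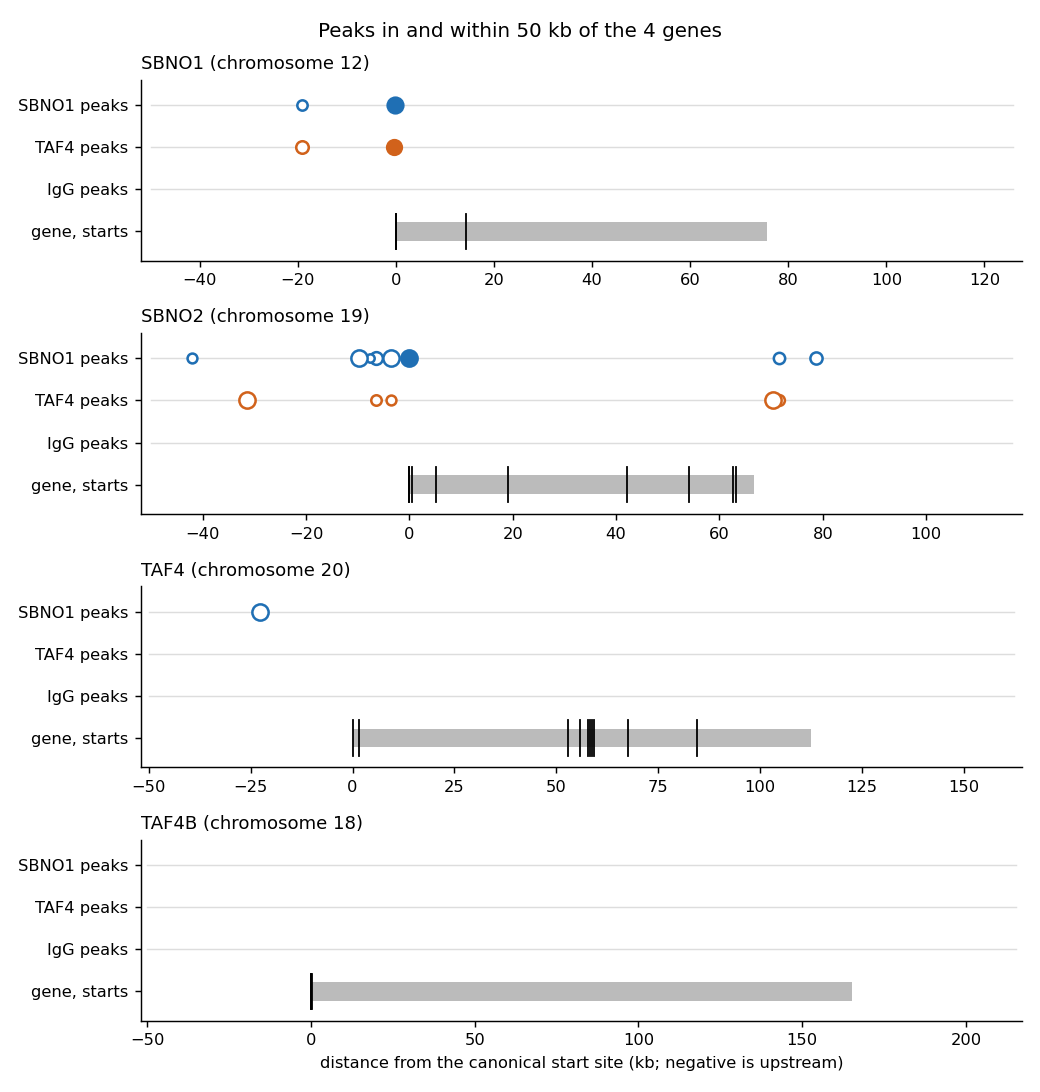
Peaks in each gene and within 50 kb of it, by library, with the distance from the canonical TSS on the x axis (kb, negative is upstream; the scale differs between panels). Circles are peaks, larger for a higher score and filled where they lie within 1 kb of a TSS of the gene, the grey bar is the gene body and black ticks are annotated TSS. The SBNO2 window held 8 SBNO1 and 5 TAF4 peaks, SBNO1 2 of each, TAF4 1 SBNO1 peak and TAF4B none, and the IgG row is empty in all 4 panels.

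TAF4 (ENSG00000130699.20, chr20:61953469-62065881, minus strand, 112 kb) had no peak of any library within 1 kb of its 10 annotated starts or in its body, its own protein included. No peak of any list in the gene body was recorded for 57.5% of all genes and for 45.2% of the 6794 genes of at least 50 kb. The nearest TAF4 peak lay 56.2 kb upstream of the canonical start, outside the window, where the median gene had one 35.9 kb away. The promoter is extreme in composition. Over the 1000 bp centred on the start, 82.8% of bases were G or C, more than in 99.9% of genes, with CpG dinucleotides at 1.07 times the number that its base content gives. Of the 31 genes between 82% and 84%, 3 (9.68%) had an SBNO1 peak and 4 (12.9%) a TAF4 peak near a TSS, whereas 27 (87.1%) had neither. Whether reads from such sequence were recovered in these libraries was not tested.

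The single peak in the TAF4 window was an SBNO1 peak, chr20:62088526-62088779 (254 bp, score 1000), 22.6 kb upstream of the gene and 21696 bp from the start of a lncRNA (ENSG00000283078), which itself is annotated 949 bp upstream of the TAF4 start. Its sequence is shown because it carries the AP-1 letters, in capitals, at bases 130 to 136 and 170 to 176. The other short SBNO1 peak of the 4 windows with these letters and no TAF4 peak, chr19:1183879-1184125 (247 bp, score 1000), lay 9.61 kb upstream of SBNO2 in STK11 and is printed beside it. Both are given on the plus strand of GRCh38.
SBNO1 peak upstream of TAF4: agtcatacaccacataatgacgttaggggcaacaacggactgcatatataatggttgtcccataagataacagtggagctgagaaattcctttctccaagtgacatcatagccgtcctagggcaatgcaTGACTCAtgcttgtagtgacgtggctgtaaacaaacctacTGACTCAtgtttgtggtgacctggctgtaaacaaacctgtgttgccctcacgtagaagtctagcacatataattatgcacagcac
SBNO1 peak upstream of SBNO2: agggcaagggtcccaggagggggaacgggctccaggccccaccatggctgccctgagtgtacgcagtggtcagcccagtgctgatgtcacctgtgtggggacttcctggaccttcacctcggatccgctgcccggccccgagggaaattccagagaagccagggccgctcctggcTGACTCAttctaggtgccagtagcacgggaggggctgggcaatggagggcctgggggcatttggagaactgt

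In the peak upstream of TAF4, the 40 bases that begin with the AP-1 letters are repeated in tandem. Bases 130 to 169 and 170 to 209 were the same at 35 of 40 positions (87.5%), so the 2 matches are copies of 1 element. In the central 200 bp, AP-1 letters were found in 27.8% of the SBNO1 list, 19.3% of the TAF4 list and 13.4% of the IgG list, and in 3.45% of RefSeq promoters. Among the SBNO1 peaks over 1 kb from every protein-coding TSS they were found in 40.2% of those that overlapped no TAF4 peak and in 33.1% of those that overlapped one. In the 4 windows, 3 of 4 such peaks without TAF4 and neither of the 2 with TAF4 held them, the third being the peak 41.7 kb upstream of SBNO2. Over the whole peak, 1 of the 2 with TAF4 (chr19:1102482-1102947) held them as well.

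TAF4B (ENSG00000141384.13, chr18:26226445-26391685, plus strand, 165 kb) had no peak of any list at its 3 starts, in its body or within 50 kb, which was so for 30.1% of genes. The nearest SBNO1 and TAF4 peaks both lay 2.35 Mb upstream of the start, where they overlapped each other (chr18:23872652-23873347, score 778, and chr18:23872632-23873164, score 1000). Of 20033 genes, only 178 (0.889%) were farther from an SBNO1 peak and 215 (1.07%) farther from a TAF4 peak. The stretch without an SBNO1 peak around TAF4B was 7.58 Mb long and held 18 protein-coding genes, TAF4B included, and that without a TAF4 peak was 7.33 Mb long and held 16.

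Chromosome 18 as a whole was poor in peaks. It held 92 SBNO1 and 77 TAF4 peaks, 0.115 and 0.0961 per 100 kb, and 7.89% and 15.8% of its 266 protein-coding genes had a peak near a TSS, the lowest shares of any chromosome but Y. The chromosomes of the other 3 members were nearer to the shares over all genes, with 33.9% and 38.5% on chromosome 12, 23.1% and 29.4% on chromosome 19 and 33.2% and 37.4% on chromosome 20. The base composition of the TAF4B promoter was ordinary, since 50.5% of genes had less G and C. Its 61.5% GC placed it in a class of 1643 genes in which 35.3% had an SBNO1 and 42.1% a TAF4 peak, above the 27.7% and 35.9% of the class of SBNO1 (71.6% GC) and the 30.9% and 39.7% of that of SBNO2 (67% GC). The number of copies of chromosome 18 in HuCCT1 cells was not measured here, and its part in the lack of peaks was not tested.

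**Figure D4:**
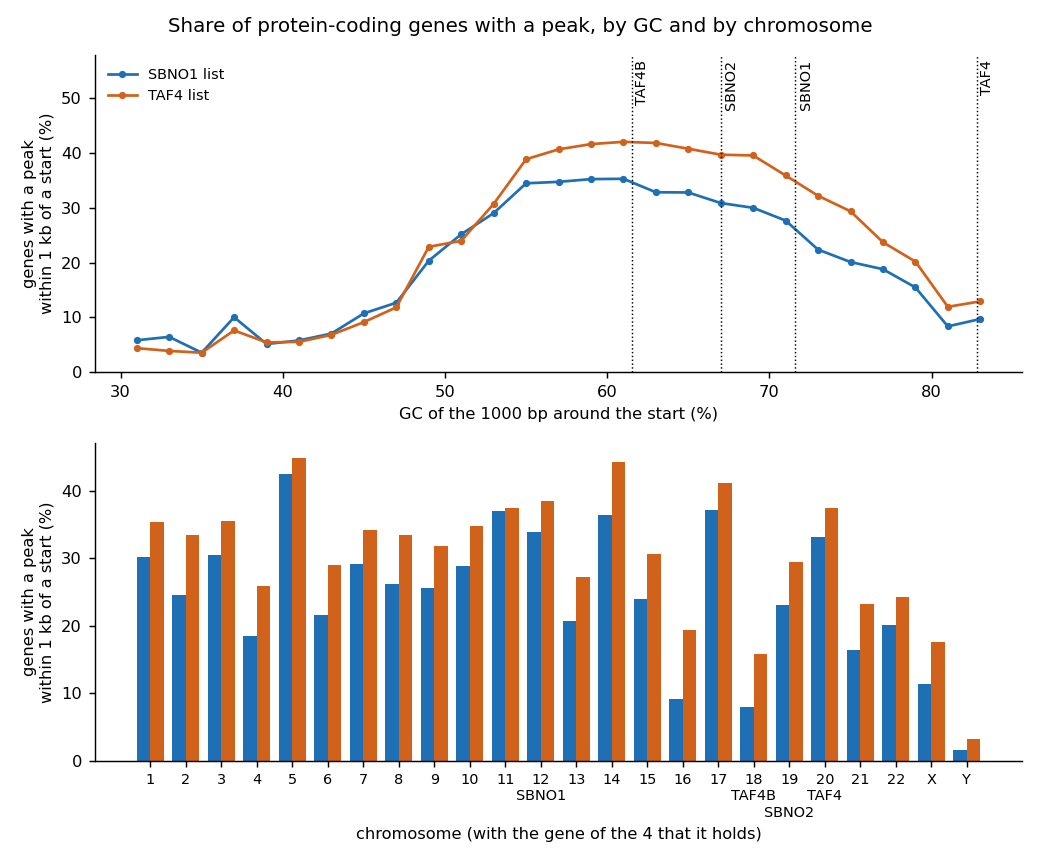
Share of protein-coding genes with an SBNO1 (blue) or TAF4 (orange) peak within 1 kb of a TSS, on the y axis in percent, by the GC content of the 1000 bp around the start in steps of 2 percentage points that hold 30 genes or more (upper panel) and by chromosome (lower panel). Dotted lines mark the 4 genes; TAF4 stands at 82.8% GC, where 9.68% and 12.9% of genes had a peak, and TAF4B on chromosome 18, where 7.89% and 15.8% did.

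The IgG library, which measures the background of the procedure, had no peak in any of the 4 windows, and neither had 93.2% of all genes. The nearest IgG peaks were 6.73 Mb (SBNO1), 3.62 Mb (SBNO2), 1.89 Mb (TAF4) and 5.29 Mb (TAF4B) from the canonical starts, where the median over genes was 1808 kb. Over the genome the IgG list had 0.0544 peaks per 100 kb.

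The genes of the TFIID complex show where the TAF4 pair stands among its partners. Of the 14 TFIID genes other than TAF4 and TAF4B, 11 (78.6%) had a TAF4 peak and 8 (57.1%) an SBNO1 peak within 1 kb of a TSS, against 32.7% and 27.1% of all genes, and none had an IgG peak. All 8 genes with an SBNO1 peak also had a TAF4 peak, as did 4698 of the 5423 genes with an SBNO1 peak over the genome. TBP, which binds the TATA box, and TAF1, the largest subunit, were among them. The SBNO1 scores went from 520 at TAF6 to 1000 at TAF5, TAF9 and TAF11, and the lowest TAF4 score was 729 at TAF13. TAF7, TAF10 and TAF13 had a TAF4 peak only. TAF3, TAF8 and TAF9B had no peak, like TAF4 and TAF4B. Hence 5 of the 16 genes had none, TAF4 and TAF4B among them, while 63.6% of all genes had none. The TFIID list was chosen with earlier results of these data known, and its shares are no independent evidence.

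Of 7 genes of proteins that the study names beside SBNO1, 6 (85.7%) had a TAF4 peak and 5 (71.4%) an SBNO1 peak near a TSS, against the same 32.7% and 27.1%. PNN had scores of 1000 in both lists over the same start. PSME3 had the same scores, but its highest-scoring SBNO1 and TAF4 peaks lay at different starts of the gene. TRIM28, a co-repressor of zinc finger proteins, had 446 and 678, while TAF3, which is on both lists, had none. The 7 were picked from a larger number of proteins named in the study, with earlier results of these data known, and are no independent evidence. Of 5 epithelial markers found in the biliary epithelium, 4 (KRT7, KRT19, SOX9 and EPCAM) had an SBNO1 peak and all 5 a TAF4 peak. At KRT7 and EPCAM the highest-scoring peaks of the libraries lay at different places. Of 11 markers of other cell types 1, COL1A1, had a peak of each library. The shares over all genes were again 27.1% and 32.7%. Both marker lists were also chosen with earlier results of these data known, so they are no check of the cell line. The lists differed in base content too, and the counts were not adjusted for it. Around the start, GC ran from 63.7% (SOX9) to 68% (KRT7) in the biliary list. In the other list it ran from 31.9% (ALB) to 63.5% (APOA1 and COL1A1). A peak does not measure expression, which was not part of these files.

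**Figure D5:**
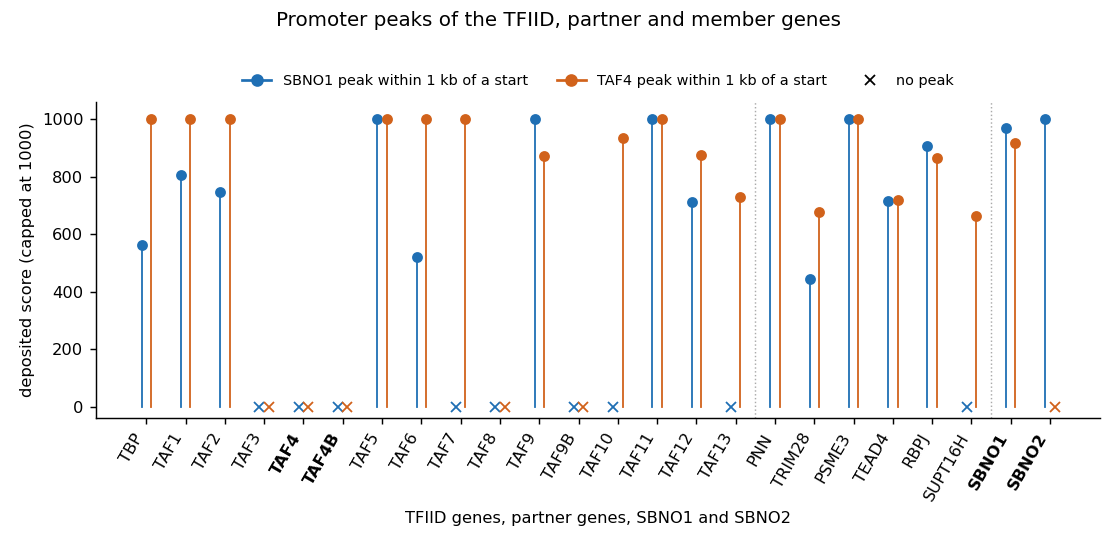
Highest score of a peak within 1 kb of a TSS (y axis, capped at 1000) in the SBNO1 (blue) and TAF4 (orange) libraries for 16 TFIID genes, 6 further genes of partners named by the study, and SBNO1 and SBNO2, with the 4 members in bold and a cross where the list had no peak. TAF4 and TAF4B have crosses for both libraries, as do TAF3, TAF8 and TAF9B.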

How the data were processed

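Peak lists of 3 ChIP-seq libraries from HuCCT1 cells were used, 1 per antibody. Single-end reads were aligned by the authors with Bowtie2 (version 2.5.4 in the submitters' processing notes) to GRCh38.p14. The notes name Genrich 0.6.1 as a further tool, whereas the methods of the study name normR for peak calling, so the caller is not settled. The score column was deposited by the authors as whole numbers up to 1000, and its scaling, the peak threshold and the use of IgG as control are not given in the sources used here. Depth is unknown, and with 1 library per antibody no test was made.

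Peaks were set against all transcripts of protein-coding genes in GENCODE 44 (coordinates 1-based, GRCh38). Distances run from the nearest peak edge, and an overlap is 1 bp or more. Of the motif letters, 11 were searched on both strands. Promoter sequences of all 4 genes came from RefSeq (GRCh38.p14). Protein lengths came from the longest reading frame of the reference transcripts and identities from global alignments with Biopython 1.88 (gap opening -10, extension -0.5). Python 3.11.15, numpy 2.4.6, scipy 1.17.1 and matplotlib 3.10.9 were used. The distance, overlap and motif functions were tested on simulated data. The members, gene lists and motifs were chosen with earlier results of these data known. Genes were named by rule: the members, genes with a TSS within 1 kb of a peak in the windows, the extremes of the TFIID and partner lists, and the 3 genes most like a member by summed score differences, ties by width. Alternative TSS sets, distances, score limits and overlap rules were tried.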

Additional observations from a re-analysis of the deposited data

How the results depend on the processing

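Over 58 alternatives to 14 counts, 44 stayed within 1.5 times the reported value, and all 16 for IgG peaks stayed at 0. The alternatives were other TSS sets, distances, score limits, overlap rules and removal of peaks that overlap an IgG peak. Keeping only peaks at the score cap left 1 member (SBNO2) with an SBNO1 peak, 0 with a TAF4 peak, 3 TFIID genes with an SBNO1 peak and 7 with a TAF4 peak. The shares of all genes with such a peak near a TSS fell as well, to 9.74% (SBNO1) and 17.8% (TAF4). Keeping peaks at or above the median score left 0 members with a TAF4 peak, 0 TAF4 peaks in gene bodies, and 5 SBNO1 and 2 TAF4 peaks in the windows. With that limit, 14.1% of all genes had an SBNO1 peak near a TSS and 20.1% a TAF4 peak. Keeping peaks wider than 200 bp, added after the data were seen, left 1 member (SBNO1) with an SBNO1 peak, while 26.2% of all genes had one. Counting a peak in a gene body by its centre left 0 SBNO1 and 0 TAF4 peaks there, since the centres of all 3 promoter peaks lie upstream. A flank of 100 kb raised the peaks in the windows to 18 (SBNO1) and 14 (TAF4), with 3 and 2 at TAF4 and still 0 at TAF4B. Searching the whole peak in place of its central 200 bp raised the motif kinds summed over the 3 promoter peaks from 8 to 13. No paired analysis was possible because there was a single library for every antibody.

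The score cannot order peaks at its cap and depends on width below it. The lists hold no depth, so signal under the threshold cannot be told apart from no signal, and no peak has a replicate to check it.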

Other observations

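Among the 18 protein-coding genes in the stretch around TAF4B that holds no SBNO1 peak are CDH2 (N-cadherin), the desmosomal cadherin genes DSC1, DSC2, DSC3, DSG1 and DSG4, SS18, a subunit of chromatin remodelling complexes, and PSMA8, a proteasome subunit of the germ line. These genes were named after the stretch was found.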
